A study of Microtus ochrogaster with 40 samples.

Results

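Differentiating oligodendrocytes, the short-lived cells between the dividing oligodendrocyte precursor and the myelinating oligodendrocyte, were selected from single nuclei of the prairie vole nucleus accumbens by the messages they carried. A nucleus was selected when its unique molecular identifiers (UMIs, each standing for 1 captured RNA molecule) of Gpr17, Enpp6 and Bmp4 summed to at least 2. It also had to hold 0 UMIs of each of Pdgfra, Cspg4, Mog, Gja1, Slc17a7, DRD1A and DRD2, which mark precursors, mature oligodendrocytes, astrocytes, glutamate neurons and medium spiny neurons. Of 185995 nuclei with at least 500 UMIs and at most 5% mitochondrial UMIs, 253 met the rule. This was 0.136% of nuclei (exact 95% binomial interval 0.120% to 0.154%, covering counting error only).

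The 40 voles (Microtus ochrogaster) had each lived for 16 days either with a mate of the other sex or with a peer of their own sex. Each vole gave 1 library from its own dissected nucleus accumbens. The mate groups held 11 females and 11 males, and the peer groups 8 females and 10 males. Animals are named below by sex, partner type and replicate (female peer 5). The comparisons ask how the selected nuclei relate to their neighbours in the lineage, and whether their number or expression differs with partner type or sex. The labels used here do not say which animals were housed with each other, so the tests between groups treat all 40 as independent. No genotype, strain or age is given in the labels used here, so the animals are described by sex and partner type alone.

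Oligodendrocyte precursors persist in the adult brain, where they divide and, when they leave the cell cycle, switch off their growth factor receptors and begin to build myelin. Cells at this stage transiently express Gpr17, an orphan receptor that holds back maturation, Enpp6, a choline phosphodiesterase of newly formed oligodendrocytes, and Bmp4, a secreted ligand that restrains differentiation. Later stages are known by the myelin proteins Mbp and Mog, and earlier ones by Pdgfra, the receptor for platelet-derived growth factor, and the proteoglycan Cspg4.

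A library held 1793 to 8204 kept nuclei (median 4727.5) and 3002288 to 14907749 UMIs, and its median nucleus held 662 to 2201 UMIs. All 6375 barcodes under 500 UMIs came from male mate 2, which stood apart in this way. No barcode was shared between 2 selected nuclei, although 53 of the 253 barcodes also occurred among the kept barcodes of another library, as did 12.1% of distinct barcodes in the series. The selected nuclei had a median of 860 UMIs, against 1555 over all nuclei. Every animal contributed, with 1 to 13 nuclei each (median 6), so the sums per animal are thin and this limits every test below.

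The label was first checked against genes the rule did not use. Among 17 further genes of differentiating oligodendrocytes, which together made 14923 of every 1000000 UMIs (CPM) in the selected nuclei, only Casr was not detected. The same list made 3103 CPM in precursors without any of the 3 rule genes and 2146 CPM in mature oligodendrocytes. Bcas1, a marker of premyelinating oligodendrocytes, was present in 85.4% of the selected nuclei (216 of 253), Tnr in 67.2% and Tcf7l2 in 52.6%. At least 1 of Olig1, Olig2, Sox10, Bcas1 and Tcf7l2 was detected in 231 nuclei (91.3%), and the other 22 had a median of 811 UMIs. These values do not go against the label for most of the nuclei.

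Genes of the cell cycle were almost silent. The 10 measured members of that list made 45.4 CPM in the selected nuclei and 556 CPM in the precursors without rule genes. They made 65.9 CPM in mature oligodendrocytes, 41.6 CPM in medium spiny neurons and 62.4 CPM over all nuclei. The low level was thus not particular to the selected nuclei. The precursors without rule genes also carried vascular messages, given below. Mki67, Top2a, Cenpf, Cenpe, Kif11 and Bub1, all of dividing cells, were at 0 in the selected nuclei.

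Markers of other cell types were not absent. The pan-neuronal list made 987 CPM against 2849 CPM in medium spiny neurons, and the spiny neuron list 907 against 7634 CPM. The interneuron list made 972 CPM against 1550 CPM in medium spiny neurons, and its highest animal, a female with a mate, had 8520 CPM. The astrocyte list made 382 CPM against 2034 CPM over all nuclei, and the microglial list 197 against 461 CPM. The endothelial list made 113 against 51.3 CPM and the mural and fibroblast list 34.0 against 38.2 CPM. The endothelial level was thus above that over all nuclei. Inpp5d of microglia, Mecom of endothelium, and Pdgfrb and Col1a2 of mural cells and fibroblasts were at 0. The other measured members of these lists were detected. A doublet caller marked 41 of the 253 nuclei (16.2%), against 4.09% of all nuclei, 19.2% of the precursors without rule genes, 10.0% of those with any count of them and 5.81% of mature oligodendrocytes. Free RNA alone could give a nucleus rule UMIs, and 9 of 29474 medium spiny neurons (0.0305%, interval 0.0140% to 0.0580%) held at least 2, with a median depth of 2310 UMIs against 860. The part of free RNA, doublets and neuronal messages in the results below was not tested apart from the alternatives named.

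The share of nuclei with a lineage gene was lowest at the smallest sums of rule UMIs and highest from a sum of 5 on. Just outside the threshold, 366 nuclei had a sum of 1, of which 40.98% held a lineage gene, and their pooled Bcas1 level was 465.8 CPM. Just inside it, 48 nuclei had a sum of 2, with 64.6% and 1481 CPM. At sums of 3 and 4 (19 and 17 nuclei) the shares were 89.5% and 88.2%, with 2608 and 3226 CPM. At sums of 5 to 9 there were 67 nuclei, with 98.5% and 11375 CPM, and the 39 nuclei at 20 or more all held a lineage gene, with 11668 CPM. Snap25, a synaptic vesicle protein gene of neurons, made 1381 CPM at a sum of 2, 770 CPM at 3, 896 CPM at 4 and 227 CPM at 20 or more. Among the selected nuclei those at 2 had the lowest share with a lineage gene. Depth differed as well, with a median of 717.5 UMIs at a sum of 2 and 1311 at 20 or more, and its part was not tested. These are descriptions with no test, since the rule set the sums.

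**Figure D1:**
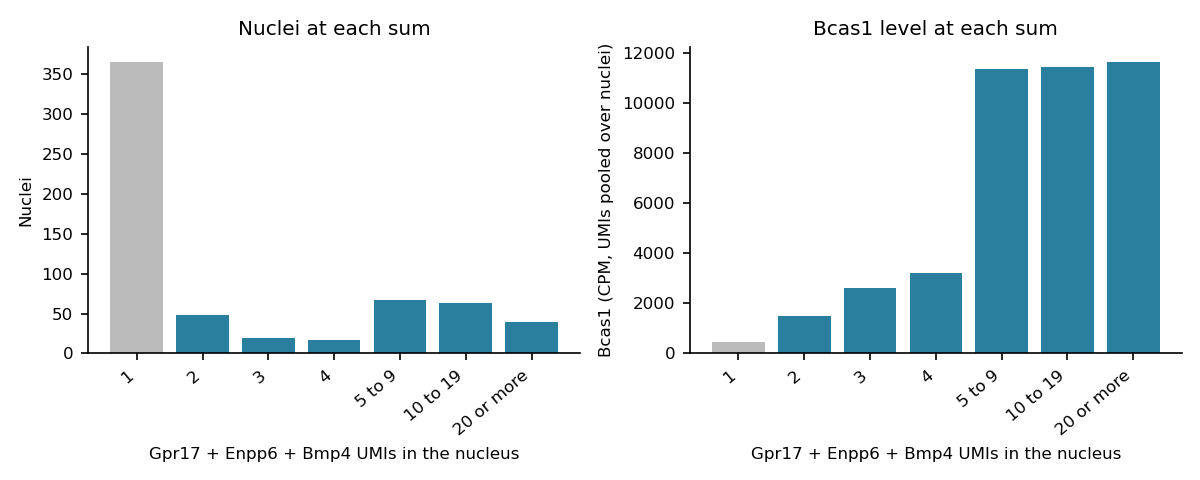
Nuclei (left) and the pooled Bcas1 level in CPM (right) by the summed UMIs of Gpr17, Enpp6 and Bmp4, with the nuclei outside the threshold in grey and the selected nuclei in blue. The Bcas1 level is 465.8 CPM at a sum of 1, 1481 CPM at 2 and above 11000 CPM from a sum of 5 on.

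Of the nuclei that carried 2 or more rule UMIs, 4012 in all, most also held a gene the rule excluded. Pdgfra was found in 3144 of them and Cspg4 in 2724, Mog in 484, Slc17a7 in 320, Gja1 in 166, DRD1A in 152 and DRD2 in 79. The selected nuclei were therefore a small remainder of the nuclei with 2 or more rule UMIs, in which neither Pdgfra, Cspg4 nor Mog was seen. Because nuclei are shallow, a 0 for Pdgfra or Mog in 1 nucleus does not show that the gene was off.

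Gpr17 supplied most of the rule counts. It was found in 224 of 253 nuclei (88.5%), with 2167 UMIs, 8193 CPM pooled and up to 57 UMIs in 1 nucleus. Enpp6 was found in 165 nuclei (65.2%) with 443 UMIs, and Bmp4 in 81 (32.0%) with 103 UMIs. Gpr17 and Enpp6 without Bmp4 was the most frequent combination (86 nuclei), followed by Gpr17 alone (59), all 3 genes (51), Gpr17 with Bmp4 (28) and Enpp6 alone (27). A single nucleus had Enpp6 with Bmp4 and a single nucleus had Bmp4 alone. In precursors selected without regard to the rule genes, Gpr17 was already at 1875 to 2947 CPM in the 7 animals described next, whereas Enpp6 was at 0 in 4 of them and at 6.12 to 28.7 CPM in the others. These levels are part of the rule and are given as a description.

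Genes outside the rule were ranked by their pooled level against all other nuclei, as a ratio with 10 CPM added to both levels. The order depends on that addition. The first were Bcas1 (8299 against 72.7 CPM), the semaphorin receptor gene Plxnb3 (1267 against 13.3 CPM) and Dct (658 against 4.22 CPM). Dct encodes dopachrome tautomerase, best known as a pigment cell enzyme, and was found in 20.2% of the selected nuclei. The collagen IX chains Col9a3 (968 CPM, 51.0% of nuclei) and Col9a2 (355 CPM, 26.9% of nuclei) also ranked among the first 11, beside Kank1, Zfp488, Tcf7l2, Slc15a4 and S100a13. The ranking is a description of the selected nuclei and has no test.

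Only 7 animals (female mate 3, 9 and 10, female peer 5, male mate 11, and male peer 2 and 6) held at least 10 selected nuclei, and they gave sums of 9075 to 13990 UMIs. Within these animals the sums were compared with those of precursors and of mature oligodendrocytes by edgeR's quasi-likelihood test with the animal as a block. Precursors were nuclei with at least 2 UMIs of Pdgfra and Cspg4 and 0 of the other stage and cell type genes. They were taken without any rule gene as planned, or, as a choice made after seeing the data, with any count of the rule genes. Over all animals the planned class held 891 nuclei and the wider one, which contains it, 4500. Most nuclei of the wider class thus carried UMIs of Gpr17, Enpp6 or Bmp4 themselves. The planned precursors carried more vascular messages than the selected nuclei when pooled, with 1095 against 34.0 CPM of the mural and fibroblast list and 904 against 113 CPM of the endothelial list. In the selected nuclei these lay mostly in male peer 2, with 694 CPM of the mural and fibroblast list and 2975 CPM of the endothelial list. Without male peer 2 the planned comparison called 52 of 116 genes (44.8%). The part of the precursors' vascular messages was not tested, and the wider precursor class is given beside them. Genes that define any of the classes were left out of the tests, but genes that go with them were not, so the comparisons describe what travels with the choice of nuclei.

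Against precursors, the tested myelin genes were higher in the selected nuclei and most tested precursor genes were lower. With the planned precursors, 51 of 114 genes that passed the count filter were called at an adjusted p under 0.05 (44.7%), 27 higher (23.7%) and 24 lower (21.1%). With the wider precursors, 234 of 1062 genes were called (22%), 92 higher (8.66%) and 142 lower (13.4%). Of the 114 genes tested in both fits, 41 were called in both with the same direction and none with opposite directions. The planned fit called 51 of them and the wider one 47, and of those called by the planned fit alone, Vxn and Serinc5 were higher there (0.54 ± 0.21 and 0.45 ± 0.18), where the wider one gave an uncalled negative value (-0.09 ± 0.21 and -0.08 ± 0.20). The median log2 fold change over all genes tested was -0.11 and -0.10. Unless stated otherwise, fold changes below are against the wider precursors, most of which carried rule UMIs themselves, n = 7 animals.

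Mbp, the gene of myelin basic protein, stood at 2102, 3471 and 8044 CPM (lowest, median and highest animal) in the selected nuclei and at 43.3, 76.2 and 160 CPM in the wider precursors. The groups did not overlap, and Mbp was higher in 7 of 7 animals. The log2 fold change was 5.72 ± 0.26 (SE; edgeR, adjusted p = 1.25e-27), and 5.33 ± 0.32 against the planned precursors.

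Bcas1 stood at 4642, 9075 and 14439 CPM in the selected nuclei and at 1269, 1769 and 2136 CPM in the wider precursors, again without overlap. Its log2 fold change was 2.29 ± 0.21 (edgeR, adjusted p = 3.38e-14). Frmd4a, which encodes a scaffold protein with a FERM domain, ranged from 198 to 771 CPM against 0 to 18.4 CPM, with 33 UMIs against 9. Its log2 fold change was 5.23 ± 0.39, resting on those few counts. Both genes were higher in all 7 animals than in any of the precursor sums.

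Kif21a, a kinesin motor gene, reached 902 to 3306 CPM against 57.2 to 163 CPM (log2 fold change 3.88 ± 0.26). Slc15a4, a lysosomal peptide and histidine transporter gene, reached 643 to 2306 CPM against 42.4 to 137 CPM (3.93 ± 0.27). Epb41l2, which encodes a membrane skeleton protein, had a log2 fold change of 3.52 ± 0.31, and Plxnb3 one of 3.101 ± 0.276. In each of these 4 genes every selected sum lay above every precursor sum. Here and elsewhere, genes were named for a low p in the same fit or as list members. A lack of overlap is thus no separate evidence, and its share over all genes is not given.

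Among the genes that fell, Ptprz1, a receptor phosphatase of precursors, stood at 198, 771 and 955 CPM against 2802, 4630 and 4910 CPM. It was lower in 7 of 7 animals without overlap, with a log2 fold change of -2.69 ± 0.25 (edgeR, adjusted p = 5.63e-14). The proteoglycan gene Cspg5 was at 0 in 4 of 7 animals and at most 201 CPM, with 4 UMIs in all, against 800.5 to 1406 CPM and 1042 UMIs. Ncan, another proteoglycan gene, had 5 UMIs against 906, raw counts that do not allow for the greater depth of the precursor sums. Apoe, which encodes a lipid carrier, fell from 1555 to 2996 CPM in precursors to 198 to 573 CPM (log2 fold change -2.50 ± 0.27). Lhfpl3, a membrane protein gene of precursors, fell by 2.22 ± 0.26 on the log2 scale, Itgav, an integrin chain gene, by 3.00 ± 0.34 and Cntn1, an adhesion protein gene, by 2.56 ± 0.30. Ptprz1 and Lhfpl3 remained measurable in all 7 animals.

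Against mature oligodendrocytes (at least 2 UMIs of Mog, Mag and Opalin, and 0 of the rule, precursor and other cell type genes), most tested genes of the differentiating list were higher in the selected nuclei and most tested myelin genes were lower. Of 1353 genes tested, 487 were called (36%), 161 higher (11.9%) and 326 lower (24.1%), with a median log2 fold change of -0.18 over all genes tested. The sums of the selected nuclei are the same ones used against precursors, so the calls of both comparisons are not independent and are only set side by side. The mature sums were deeper, at 111178 to 252360 UMIs against 9075 to 13990 in the selected sums. With at least 3 nuclei and equal depth, described below, 356 of 2002 genes were called higher (17.8%) and 349 lower (17.4%). That fit also took more animals, so the part of depth in the excess of lower calls was not tested. The 11.9% and 24.1% given beside lists below are those of the fit of unequal depth.

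Tnr, which encodes the matrix protein tenascin-R, stood at 992, 1466 and 3057 CPM in the selected nuclei and at 0, 11.9 and 24.7 CPM in mature oligodendrocytes, a log2 fold change of 6.97 ± 0.32 (edgeR, adjusted p = 1.85e-37). In the wider precursors it ranged from 709 to 1271 CPM, and the selected nuclei were higher there too (0.81 ± 0.20, adjusted p = 0.0013). Tnr was thus highest in the selected nuclei in every one of the 7 animals. Bcas1 followed the same order, at 704 to 1584 CPM in mature oligodendrocytes (log2 fold change 2.99 ± 0.25).

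Vxn, which encodes vexin, was at 992 to 2534 CPM in the selected nuclei and 5.46 to 27.0 CPM in mature oligodendrocytes (log2 fold change 6.62 ± 0.32), and at 1420 to 2177 CPM in the wider precursors. Kank1, a gene of a cell cortex and adhesion protein, was at 793 to 2484 CPM against 33.7 to 98.9 CPM (4.89 ± 0.26). C1ql1, which encodes a secreted C1q-like protein, was at 397 to 1404 CPM against 0 to 11.9 CPM, with 5 UMIs in the mature sums. Lrrn1, Septin5 and Pik3r3 were higher than in mature oligodendrocytes by 4.79 ± 0.30, 3.70 ± 0.26 and 4.97 ± 0.38 on the log2 scale. None of these genes overlapped between the classes. They were named for a low p in the same fit or as list members, so this is no separate evidence.

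Late genes separated the classes from the other side. Ptgds, the gene of prostaglandin D synthase, stood at 95.5, 163 and 2975 CPM in the selected nuclei and at 8797, 13390 and 19824 CPM in mature oligodendrocytes (log2 fold change -4.80 ± 0.40). Male peer 2, at 2975 CPM, and male peer 6, at 1188 CPM, were the highest of the selected sums. Mal, a gene of a myelin raft protein, was at 0 to 1388 CPM against 3184 to 4327 CPM (-3.94 ± 0.36), with male peer 2 again the highest. Cryab, a small heat shock protein gene, was at 0 to 396 CPM against 1622 to 3087 CPM (-4.75 ± 0.42). Qdpr, a pteridine reductase gene, fell by 4.00 ± 0.38, Cntn2, an axon contact gene, by 3.07 ± 0.33 and Cldn11, the tight junction gene of myelin, by 2.78 ± 0.30. Kcnk1 and Lpar1 had 3 UMIs each in the selected sums, against 1799 and 1101 in the mature sums. These are raw counts from sums of unequal depth (9075 to 13990 UMIs against 111178 to 252360), so their ratio is no fold change.

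**Figure D2:**
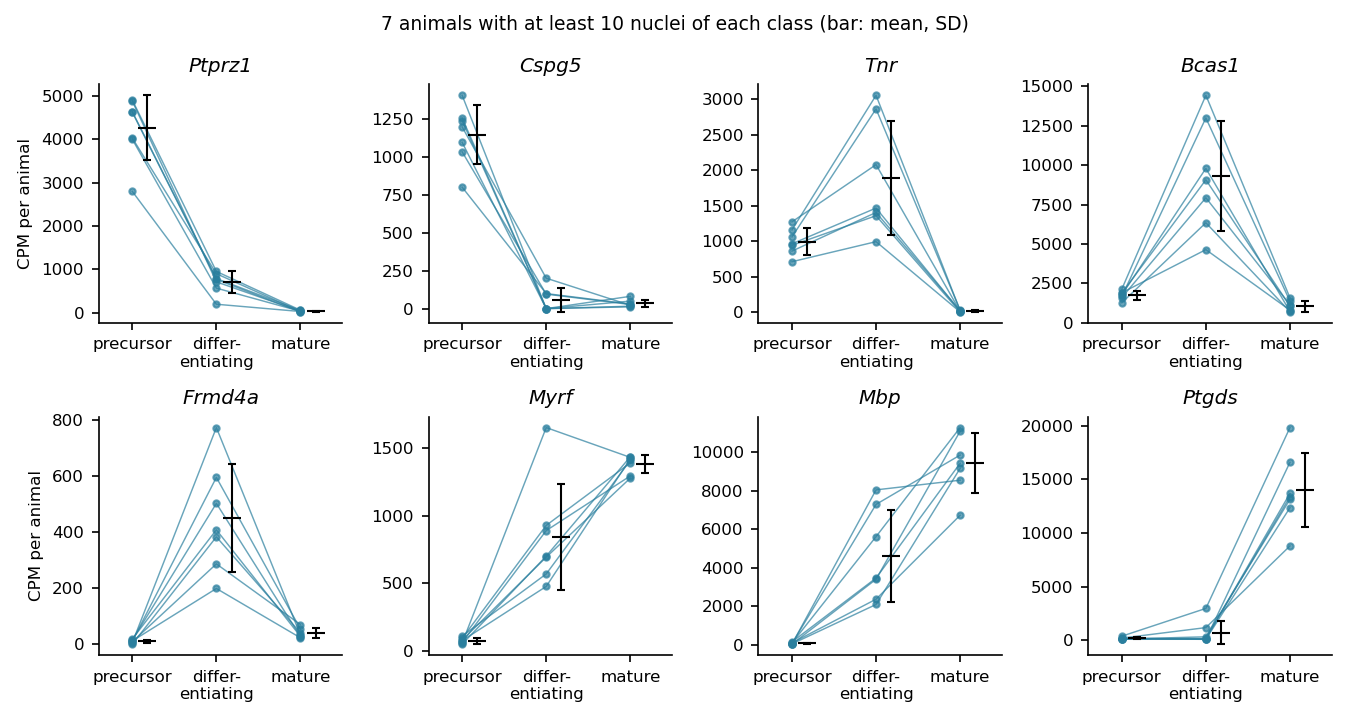
Level in CPM of 8 genes in precursors with any count of the rule genes, differentiating and mature oligodendrocytes, with a line for each of 7 animals and mean and SD beside them. Ptprz1 falls through both steps, Cspg5 falls at the first, Tnr, Bcas1 and Frmd4a peak in the middle (Bcas1 at 4642 to 14439 CPM), Myrf and Mbp rise through both steps in at least 6 of 7 animals, and Ptgds is high in mature nuclei.

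Of 7 tested genes of the differentiating list, 6 were higher than in the wider precursors (Frmd4a, Bcas1, Sirt2, Tcf7l2, Fyn and Tnr), none was lower, and the median log2 fold change was 2.62. Against mature oligodendrocytes 6 of 7 were higher as well (Tnr, Zfp488, Bcas1, Fyn, Frmd4a and Itpr2), with a median of 3.33, and Sirt2 was not called (0.32 ± 0.28). In the 34 animals described below Sirt2 was called higher too (0.57 ± 0.21, edgeR, adjusted p = 0.0262). Itpr2, a calcium release channel gene, was not called against precursors (-0.60 ± 0.24, adjusted p = 0.063). Of 8 tested precursor genes outside the rule, 6 were lower than in the wider precursors (Ptprz1, Cspg5, Lhfpl3, Xylt1, C1ql1 and Cacng4) and 1, Sox6, was higher. All 8 tested mature genes outside the class definition (among them Ptgds, Mal, Cldn11, Apod, Aspa, Cnp and Mbp) were lower than in mature oligodendrocytes. All 5 tested against precursors (among them Mbp, Cldn11, Cnp and Apod) were higher. Over all genes, 8.66% were called higher and 13.4% lower than in the wider precursors, and 11.9% higher and 24.1% lower than in mature oligodendrocytes. These lists were chosen to tell stages apart and the classes were chosen by stage genes, so their direction is no independent evidence.

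Among lineage transcription factors, 4 of 8 tested were higher than in the wider precursors (Myrf, Tcf7l2, Zeb2 and Sox6), 2 were lower (Olig1 and Olig2) and 2 were not called (Sox8 and Sox10), beside 8.66% of all genes called higher and 13.4% lower. Myrf, the regulator that turns on myelin genes, stood at 478, 702 and 1653 CPM against 50.5, 76.6 and 110 CPM, with no overlap (log2 fold change 3.37 ± 0.30, edgeR, adjusted p = 2.39e-14). Mature oligodendrocytes were at 1279 to 1437 CPM, above the selected nuclei in 6 of 7 animals (-0.87 ± 0.25, adjusted p = 0.0036). Tcf7l2, an effector of Wnt signalling that marks this stage, had a log2 fold change of 2.62 ± 0.28 against precursors. Male peer 6, at 99.0 CPM, lay within the precursor range of 84.7 to 271 CPM, and the other 6 animals lay above it at 595 to 2102 CPM.

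Olig1, a basic helix-loop-helix factor of the lineage, was lower than in precursors in 7 of 7 animals, at 0 to 602 CPM against 549 to 822 CPM, with the highest animal inside the precursor range (log2 fold change -2.22 ± 0.38). Olig2, its neighbour in the family, was lower by 1.13 ± 0.29. Against mature oligodendrocytes neither was called in 7 animals (Olig1 -0.73 ± 0.46 and Olig2 0.25 ± 0.35). In the 34 animals described below Olig1 was lower than in mature oligodendrocytes (-0.77 ± 0.30, adjusted p = 0.0342) and Olig2 was not called (0.53 ± 0.26). Sox10, expressed through the whole lineage, was at 286 to 896 CPM in the selected nuclei, 367 to 534 CPM in the wider precursors and 405 to 553 CPM in mature oligodendrocytes, and was called in neither comparison (0.17 ± 0.28 and 0.02 ± 0.29). In 34 animals it was higher than in mature oligodendrocytes (0.61 ± 0.21, edgeR, adjusted p = 0.0147). Sox6, usually counted as a precursor gene, was at 214 to 661 CPM against 79.6 to 169 CPM in the wider precursors (1.58 ± 0.34, adjusted p = 0.00021), and had 3 UMIs in the mature sums. Zfp488 had 35 UMIs in the selected sums and 2 in the mature sums.

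Of the myelin genes tested against the wider precursors, all 7 were higher (among them Mbp, Nfasc, Cldn11, Ugt8a, Cnp and Fa2h), with a median log2 fold change of 2.48. Against mature oligodendrocytes 11 of 13 were lower, 1 (Nfasc) was higher and 1 (Fa2h) was not called, with a median of -1.88. Beside these counts, 8.66% of all genes were called higher than in the wider precursors. Against mature oligodendrocytes 11.9% of all genes were higher and 24.1% lower. Fa2h, which hydroxylates fatty acids of myelin lipids, stood at 764 to 1003 CPM in the selected nuclei and 711 to 1125 CPM in mature oligodendrocytes (-0.14 ± 0.24). Nfasc, the gene of the axon contact protein neurofascin, stood at 298 to 1358 CPM against 280 to 702 CPM in mature oligodendrocytes (0.80 ± 0.25, adjusted p = 0.0063) and was higher in 7 of 7 animals. Ugt8a, which makes the myelin lipid galactosylceramide, had a log2 fold change of -0.75 ± 0.24 and Mbp one of -1.26 ± 0.28, beside the larger ones of Cldn11, Mal and Ptgds given above.

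**Figure D3:**
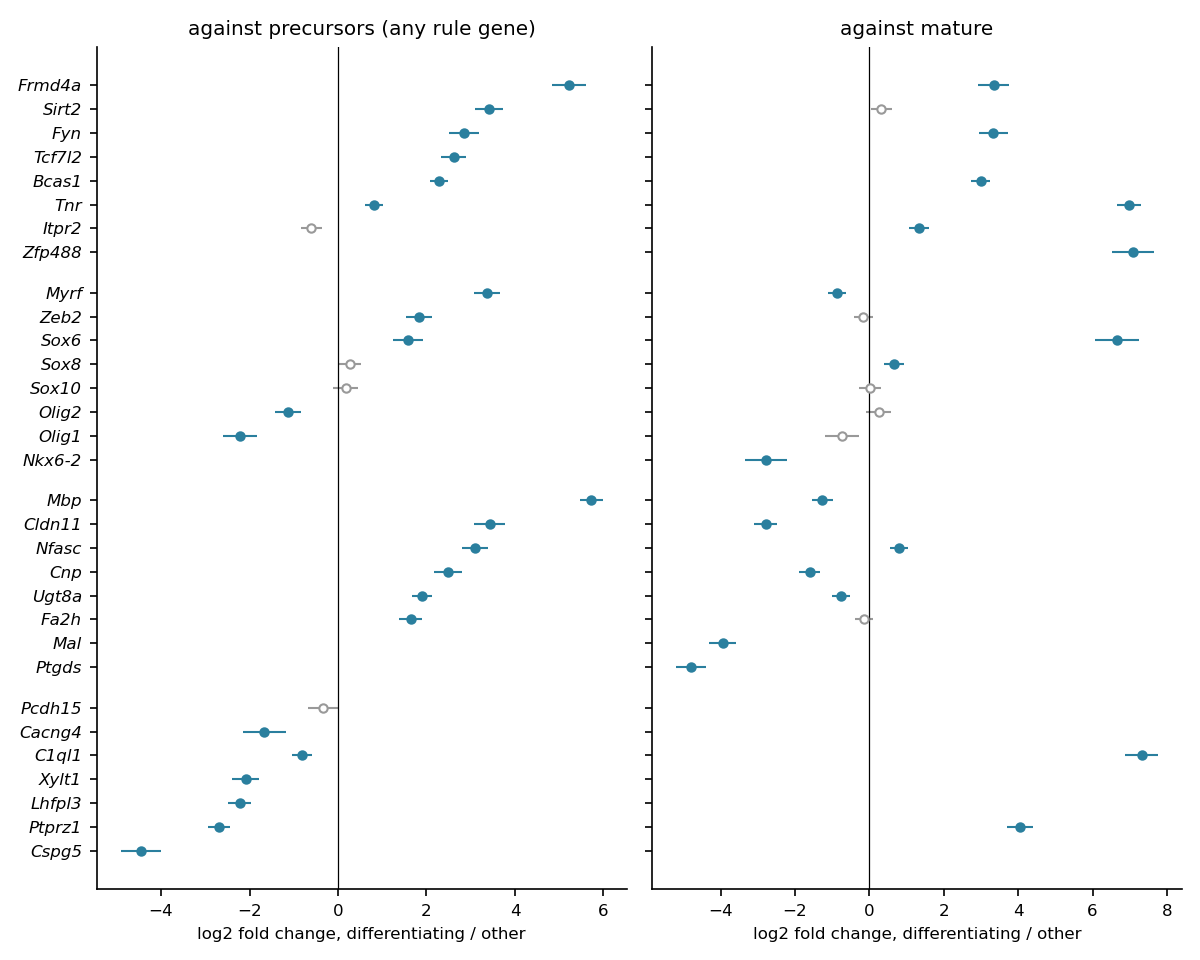
Log2 fold change with its SE of listed genes in differentiating oligodendrocytes against precursors with any count of the rule genes (left) and against mature oligodendrocytes (right), n = 7 animals, filled where the adjusted p is under 0.05, open grey where it is not, and with no point where a gene was not tested. Genes stand in 4 blocks, of the differentiating stage, of transcription factors, of myelin and of precursors, and Mbp is at 5.72 on the left and -1.26 on the right.

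For genes of process outgrowth and axon contact, calls went in both directions. Against the wider precursors 5 of 8 were higher (Plxnb3, Nfasc, Fyn, Wasf1 and Tnr) and 1 was lower (Cntn1). Over all genes 8.66% were called higher there and 13.4% lower, so the share called lower was near that over all genes. Fyn, a kinase that acts downstream of axon contact, stood at 331 to 702 CPM against 36.1 to 84.8 CPM (log2 fold change 2.85 ± 0.34), and Wasf1, an actin regulator gene, had a log2 fold change of 1.30 ± 0.25. Against mature oligodendrocytes 6 of 11 were higher (Tnr, Plxnb3, Fyn, Dscaml1, Wasf1 and Nfasc) and 3 lower (Cntn2, Gsn and Tppp), beside 11.9% of all genes called higher and 24.1% lower, so that the share called lower was near that over all genes. Plxnb3 was above both neighbours, with 489 to 2206 CPM in the selected nuclei, 84.7 to 245 CPM in the wider precursors and 144 to 306 CPM in mature oligodendrocytes.

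Enpp6 cleaves choline phosphodiesters, and other genes of choline lipid handling were tested as a list. Against the wider precursors 2 of 7 were higher, the choline transporter gene Slc44a1 (489 to 992 CPM against 80.0 to 297 CPM, log2 fold change 1.96 ± 0.31) and the phospholipase gene Pld1 (1.16 ± 0.33), and none was lower. Over all genes 8.66% were called higher in that fit. Against mature oligodendrocytes 3 of 7 were higher (Gpcpd1 2.65 ± 0.31, Pld1 3.02 ± 0.39 and Chka 1.56 ± 0.34) and 2 were lower (Gde1 -1.68 ± 0.40 and Pcyt1a -1.63 ± 0.44), beside 11.9% of all genes called higher and 24.1% lower. The list median was 0.38 against precursors and 0.47 against mature oligodendrocytes. Of 2 sphingolipid genes tested against precursors, both (Ugt8a and Fa2h) were higher, beside 8.66% of all genes. Against mature oligodendrocytes 3 of 5 were lower (Cers2, Elovl7 and Ugt8a), beside 24.1% of all genes. Of 4 cholesterol synthesis genes tested against mature oligodendrocytes, 1 (Cyp51) was lower by 0.95 ± 0.34, a share near the 24.1% of all genes called lower there, and the 1 tested against precursors was not called.

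Signalling lists were mostly too low to test. Their counts against the wider precursors stand beside 8.66% of all genes called higher and 13.4% lower, and rest on few tested genes. Of 20 BMP pathway genes, 2 were tested against the wider precursors, of which the ligand gene Bmp7 was lower (-1.78 ± 0.54, 6 UMIs against 241) and the receptor gene Bmpr2 was not called (0.12 ± 0.34). The BMP target gene Id1 and the ligand-binding inhibitor genes Nog and Grem1 were at 0 in all 253 nuclei. Of 12 Notch genes, the receptor gene Notch1 (-1.43 ± 0.39) and Cntn1 were tested and both were lower. Of 16 Wnt genes, 4 were tested, of which Tcf7l2 and the coreceptor gene Lrp6 (0.81 ± 0.29) were higher and Ctnnb1 and Apc were not called. Lrp6 was not called in the fit of 34 animals described next (0.40 ± 0.23, adjusted p = 0.26).

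Among receptors and channels, Scn3a (-1.52 ± 0.45) and Kcnj10 (-1.27 ± 0.40) were lower than in the wider precursors and 4 of 6 were not called, beside 13.4% of all genes called lower. Against mature oligodendrocytes, the orphan receptor gene Gpr37l1 (3.36 ± 0.31) and the AMPA receptor gene Gria2 (1.72 ± 0.25) were higher, and 5 of 8 were lower, Gpr37 by 3.06 ± 0.35 with Lpar1, S1pr5, Erbb3 and Kcnj10, beside 11.9% and 24.1% over all genes. Gria2 stood at a mean of 1390 ± 644 CPM (SD, n = 7) in the selected nuclei, 1614 ± 172 CPM in the wider precursors and 388 ± 109 CPM in mature oligodendrocytes. Snap25 and Syt1, the tested pan-neuronal genes, were called in neither comparison, nor were the spiny neuron genes Penk and Ppp1r1b. Of the astrocyte list, both tested genes (Slc1a2 and Slc1a3) were lower than in the wider precursors, with a median log2 fold change of -1.55. Against mature oligodendrocytes the 1 tested, Slc1a3, was lower (-1.46). Over all genes 13.4% and 24.1% were called lower.

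Taking the 34 animals with at least 3 selected nuclei, and thinning the other class to the same depth in each animal, widened the tests. Against the wider precursors 441 of 2142 genes were called (20.6%), 189 higher (8.82%) and 252 lower (11.8%). Against the planned precursors 395 of 2133 were called (18.5%), 203 higher (9.52%) and 192 lower (9%). Against mature oligodendrocytes 705 of 2002 were called (35.2%), 356 higher (17.8%) and 349 lower (17.4%), where the 7 animals had given 161 higher and 326 lower. Of the genes tested in both fits, 217 of the 234 called in 7 animals and 217 of the 300 called in 34 animals were called in both with the same direction against precursors. Against mature oligodendrocytes this held for 413 of 470 and of 555. These 34 animals include the 7, so this is no separate evidence. Bcas1 was higher than in the wider precursors and than in mature oligodendrocytes in 34 of 34 animals, with log2 fold changes of 2.40 ± 0.14 and 3.02 ± 0.16. Myrf was higher than in precursors in 34 of 34 animals and Mbp in 33. These counts of animals come from the sums before thinning, whereas the fold changes come from the thinned sums. Zfp488 (1.21 ± 0.26), Mycl (2.34 ± 0.39), Tspan2 (1.10 ± 0.29) and Tppp (2.09 ± 0.35), too low to test in 7 animals, were higher than in precursors.

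The selected nuclei were not uniform. The planned comparison of nuclei with Enpp6 and no Gpr17 against those with Gpr17 and no Enpp6 could not be made, since no animal held 5 of each. In its place, chosen after the numbers of nuclei were seen, 137 Gpr17 nuclei with Enpp6 were compared with 87 without it, in the 21 animals that held at least 2 of each. For the tests, the summed UMIs of each pair were made equal within the animal. Levels in CPM and counts of animals given for this split come from the sums before that step. Making the sums equal did not change single nuclei, whose median was 947 UMIs with Enpp6 and 757 without. The part of that difference in which nuclei showed Enpp6 was not tested. Of 372 genes tested, 26 were called (6.99%), 18 higher (4.84%) and 8 lower (2.15%) in nuclei with Enpp6, with a median log2 fold change of 0.03 over all genes.

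In nuclei with Enpp6, 4 of 7 tested myelin genes were higher and 3 were not called (Fa2h, Tspan2 and Cnp). Of 4 tested precursor genes, 2 were lower (Ptprz1 and Lhfpl3) and 2 were not called (Xylt1 and C1ql1). Mbp ranged from 0 to 20682 CPM (median 4739) in nuclei with Enpp6 and from 0 to 11684 CPM (median 0) in those without, and was higher in 16 of 21 animals. The ranges overlapped, and the log2 fold change was 3.00 ± 0.38 (edgeR, adjusted p = 1.1e-12). Myrf had a median of 932 against 212 CPM and was higher in 20 of 21 animals (1.63 ± 0.46, adjusted p = 0.0143). Ugt8a (1.45 ± 0.34), Nfasc (1.54 ± 0.42), the fatty acid ligase gene Acsl3 (1.28 ± 0.33), the phosphatase gene Ptprj (1.49 ± 0.43) and Pik3r3 (1.76 ± 0.44) were also higher.

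Ptprz1 had a median of 409 CPM in nuclei with Enpp6 and 1150 CPM in those without, and was lower in 18 of 21 animals (-1.51 ± 0.41, adjusted p = 0.00891). Lhfpl3 (-1.44 ± 0.43), Csmd3 (-1.93 ± 0.46), Tspan7 (-1.49 ± 0.44) and Htra1 (-1.43 ± 0.45) were lower too. All 7 tested genes of the differentiating list were uncalled, among them Bcas1 (0.65 ± 0.31, adjusted p = 0.22) and Tnr (0.46 ± 0.32). With doublet calls left out 5 of 260 genes were called, and with at least 4 nuclei of each kind 2 of 421 were, in 16 and 5 animals. Mbp was called in both of these fits (2.63 and 3.16 on the log2 scale) and Myrf in neither. With at least 4 nuclei no gene was called lower, so the calls of Ptprz1 and Lhfpl3 were lost there.

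**Figure D4:**
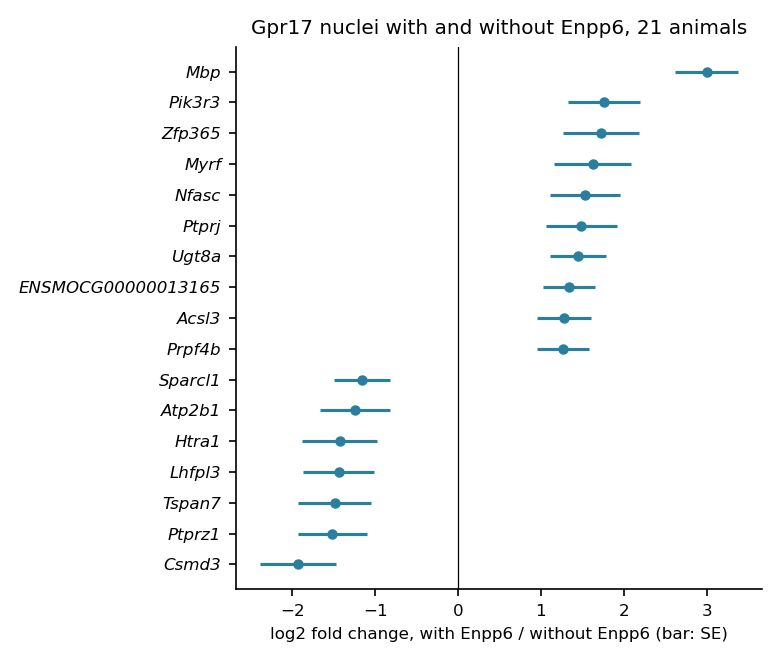
Log2 fold change with its SE of named genes in Gpr17 nuclei with Enpp6 against Gpr17 nuclei without Enpp6, in 21 animals at equal summed UMIs. Mbp is at 3.00 and Csmd3 at -1.93, the ends of the plot.

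The 28 nuclei with Enpp6 and no Gpr17 were higher in Mbp, Mal and Ptgds and lower in Bcas1, as pooled values without a test. Bcas1 made 867 CPM (27 UMIs, interval 571 to 1261 CPM) in them, 10509 CPM in nuclei with both genes and 6835 CPM in Gpr17 nuclei without Enpp6. Mbp ran from 1075 CPM in Gpr17 nuclei without Enpp6 to 6370 CPM with both and 11171 CPM with Enpp6 and no Gpr17. In the same order, Mal made 92.9, 89.0 and 1220 CPM, and Ptgds 305, 280 and 2985 CPM. In the nuclei with Enpp6 and no Gpr17, Bcas1 and Mbp were near the pooled levels of mature oligodendrocytes given under the other observations, and Ptgds was below. Whether some of them were mature nuclei in which Mog was not captured was not tested. Rras2, a small GTPase gene of newly formed oligodendrocytes, made 26.5 CPM in Gpr17 nuclei without Enpp6, 172 CPM with both and 931 CPM (29 UMIs) with Enpp6 and no Gpr17. Precursor genes were nearly gone from the nuclei with Enpp6 and no Gpr17, with 1 UMI each of Ptprz1 and Lhfpl3. Their median depth was 750 UMIs, and their Snap25 level was 1091 CPM, against 337 CPM in nuclei with both genes and 810 CPM in Gpr17 nuclei without Enpp6. The part of neuronal RNA in these values was not tested.

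By group, Enpp6 was found in 58.0% (51 of 88) of the selected nuclei of females with a mate and 67.4% (29 of 43) of those with a peer, and in 75.4% (43 of 57) and 64.6% (42 of 65) in males. Bmp4 was found in 33.0% and 37.2% in females and 19.3% and 38.5% in males, and Gpr17 in 93.2%, 88.4%, 82.5% and 87.7%, in the same order. Nuclei of 1 animal are not independent and the rule used these genes, so these are descriptions with no test.

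Expression in the selected nuclei was compared between groups over the 34 animals with at least 3 of them (females, 11 with a mate and 5 with a peer; males, 9 and 9). The planned minimum of 10 nuclei left 3, 1, 1 and 2 animals in that order, too few to fit. Of 4626 genes tested by edgeR, 0 were called for partner type (0%) and 0 for sex (0%), with 227 and 262 at an unadjusted p under 0.05. DESeq2 also called 0, with 82 and 118. On data simulated at this depth, 50.5% of 4-fold changes between partner types and 55.2% between sexes were recovered, but only 5.32% and 17.2% of 2-fold changes, so most 2-fold differences would be missed at this depth. The simulation used a dispersion of 0.1.

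No gene of the lineage lists was called for partner type. For mate against peer, Bcas1 differed by -0.11 ± 0.25, Myrf by -0.24 ± 0.32, Tnr by 0.26 ± 0.29, Tcf7l2 by 0.04 ± 0.30 and Ptprz1 by 0.04 ± 0.34 on the log2 scale. Mbp differed by -0.52 ± 0.25 (unadjusted p = 0.040, edgeR adjusted p = 0.992). The median log2 difference was -0.49 over the 7 tested genes of the mature list, -0.41 over 12 myelin genes and -0.52 over 10 sphingolipid genes, against -0.08 over all genes. None of the 14 tested genes of the differentiating list, the 9 of the precursor list or the 7 of the mature list was called for partner type, sex or their interaction. With doublet calls left out, Ptgds of the mature list was called lower with a mate (edgeR, adjusted p = 0.0324). For females against males, Bcas1 differed by 0.10 ± 0.25 and Mbp by 0.16 ± 0.26.

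The 3 genes with the lowest p for partner type were Arid5b (-2.45 ± 0.63), a chromatin factor gene, Cst3 (-1.27 ± 0.33), which encodes cystatin C, and Nrbp2 (2.29 ± 0.60), each with an edgeR adjusted p of 0.178. Arid5b had 3 UMIs in female mate, 0 in male mate, 7 in female peer and 8 in male peer sums. For sex they were the GABA synthesis gene Gad1 (1.97 ± 0.51), Naf1 (2.51 ± 0.68) and the vesicular GABA transporter gene Slc32a1 (1.99 ± 0.54), each with an adjusted p of 0.306. Of 58 Gad1 UMIs, 31 came from 1 nucleus of female peer 2 with 7880 UMIs. These genes did not pass the test.

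For the difference of the partner effect between the sexes, 6 of 4626 genes were called by edgeR (0.13%), 1 positive (0.0216%) and 5 negative (0.108%), with 304 at an unadjusted p under 0.05. DESeq2 called 0, with 121. They were Penk (-6.39 ± 0.80, adjusted p = 6.96e-12), ENSMOCG00000018995 (-5.99 ± 1.27, adjusted p = 0.00561), Scg2 (-4.89 ± 1.09, adjusted p = 0.0109), Mdh1 (-3.34 ± 0.78, adjusted p = 0.0231), Gad2 (-3.44 ± 0.83, adjusted p = 0.0313) and Fads1 (4.67 ± 1.16, adjusted p = 0.0415). Penk, the gene of the opioid precursor proenkephalin, Scg2, a secretory granule gene, and Gad2, a GABA synthesis gene, belong to neurons. Of the 57 Penk UMIs of female peer animals, 56 came from 1 nucleus of female peer 5 that held none of the 5 lineage genes. Penk was 4003 CPM in that animal and at most 123 CPM in the other 4 female peer animals, and 0 to 4399 CPM in male mate animals. Without female peer 5, Penk had a log2 difference of -1.87 (edgeR adjusted p = 0.959).

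The other 5 calls also rested on few counts or single animals. Without female peer 2, the calls of Scg2 (-3.47, adjusted p = 0.513), Mdh1 (-2.64, adjusted p = 0.325), Gad2 (-1.89, adjusted p = 0.861) and Fads1 (4.51, adjusted p = 0.127) were lost. A single nucleus of that animal, with 7880 UMIs, gave 20 of 91 Mdh1 UMIs and 18 of 79 Gad2 UMIs. Without male mate 4, edgeR called Penk alone of the 6, with Scg2 at -3.38 (adjusted p = 0.452) and Mdh1, Gad2, ENSMOCG00000018995 and Fads1 at adjusted p of 0.0900 to 0.104. ENSMOCG00000018995 had 20 UMIs in all, 0 of them in female mate animals, and was too low to test without female peer 5. Fads1, a fatty acid desaturase gene, held 25 UMIs in female mate, 8 in female peer, 0 in male mate and 17 in male peer sums, with no more than 2 in any nucleus. It also lost its call without female peer 4 (4.43) or female peer 5 (4.41). Where each nucleus had to hold a lineage gene, Penk had a log2 difference of -1.69 (adjusted p = 1.00). The simulation for this contrast recovered 0% of 4-fold changes.

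The share of selected nuclei among all nuclei was 0.159% ± 0.044 (SD, n = 11) in females with a mate and 0.121% ± 0.062 (n = 8) in females with a peer. In males it was 0.106% ± 0.053 (n = 11) with a mate and 0.157% ± 0.101 (n = 10) with a peer. The lowest, median and highest shares were 0.0938%, 0.155% and 0.237% in females with a mate, and 0.0414%, 0.120% and 0.222% with a peer. In males they were 0.0346%, 0.0980% and 0.194% with a mate, and 0.0534%, 0.119% and 0.390% with a peer. All 4 groups overlapped widely, and the highest share belonged to a male peer animal. Averaged over sex, mate minus peer was -0.00662 percentage points (permutation p = 0.773, two-sided, adjusted over 3 tests 0.773). Females minus males was 0.0086 (permutation p = 0.730, adjusted 0.773).

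The partner difference in share had opposite signs in the sexes, and the adjusted p of that difference missed the threshold. In females mate minus peer was 0.0375 percentage points (exact permutation p = 0.139), and in males -0.0508 (exact permutation p = 0.162). The difference between the 2 was 0.0883 (permutation p = 0.0388, adjusted 0.116). With doublet calls left out it was 0.0520 (permutation p = 0.263), and thinned to 1000 UMIs 0.0567 (p = 0.290). With a lineage gene needed it was 0.0927 (permutation p = 0.0233, adjusted 0.0699). With at least 3 rule UMIs it was 0.0748 (permutation p = 0.0450, adjusted 0.135), and thinned to 500 UMIs 0.110 (p = 0.0433, adjusted 0.130). Without male mate 2 it was 0.0826 (permutation p = 0.0583, adjusted 0.175). The adjusted p missed the threshold in each of these.

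As a share of oligodendrocyte-lineage nuclei (selected, precursor without rule genes, and mature), the selected nuclei made 3.03% ± 1.21 in females with a mate, 2.18% ± 1.40 in females with a peer, 2.59% ± 1.99 in males with a mate and 3.51% ± 3.31 in males with a peer. Mate minus peer was -0.0307 percentage points (permutation p = 0.964), females minus males -0.445 (p = 0.554) and the difference of the partner effects 1.76 (p = 0.197, adjusted 0.592). Without male mate 2 these were -0.258 (permutation p = 0.706), -0.218 (p = 0.768) and 2.22 (p = 0.0892, adjusted 0.268). With precursors of any rule gene counted instead, the difference of the partner effects was smaller, at 0.884 (permutation p = 0.364, adjusted 0.696). The highest male peer animal reached 10.3%, against a group median of 1.83%.

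**Figure D5:**
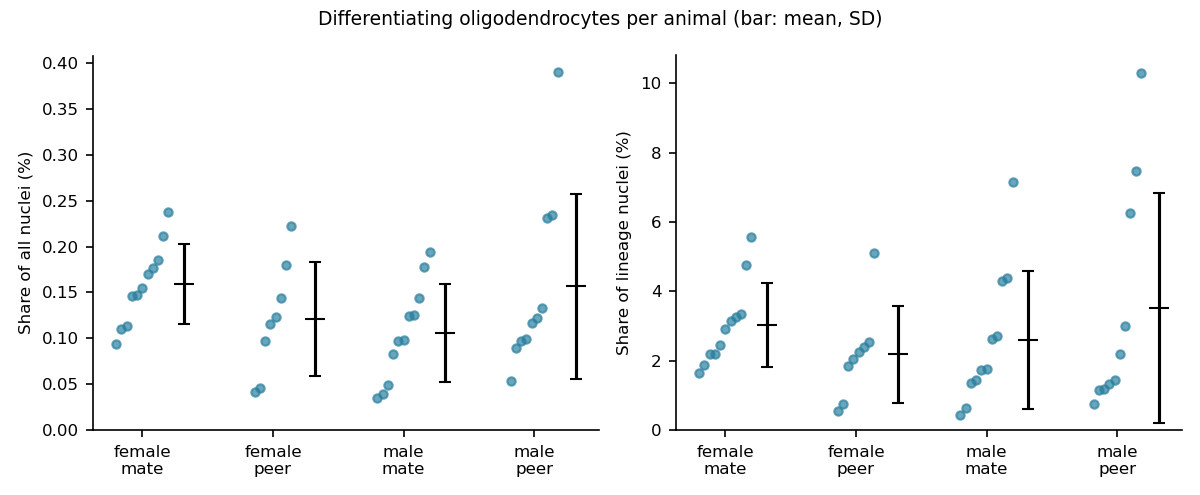
Differentiating oligodendrocytes of each animal as a share of all nuclei (left) and of oligodendrocyte-lineage nuclei (right), in percent, with mean and SD by group (11, 8, 11 and 10 animals). The groups overlap in both panels, and 1 male peer animal is the highest in each, at 0.390% on the left and 10.3% on the right.

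Across the 40 animals, 3 relations of the share with library measures were computed. The share of selected nuclei was higher where that of mature oligodendrocytes was lower, with Pearson's r = -0.402 (permutation p = 0.0102, adjusted 0.0306) and Spearman's rho = -0.437 (permutation p = 0.00542, adjusted 0.0163), and r = -0.552 without male mate 2 and male peer 8. With the share of wider precursors, r was 0.317 (permutation p = 0.0479, adjusted 0.0718) and rho 0.274 (p = 0.0871, adjusted 0.131), and r was 0.249 without male mate 2 and female mate 7. With the library's median UMIs, r was -0.0717 (permutation p = 0.652, adjusted 0.652) and rho -0.217 (p = 0.178, adjusted 0.178), and r was -0.341 (p = 0.0361) without male mate 2 and female peer 1. The shares have the same denominator, the nuclei of the library, and its part in these relations was not tested.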

How the data were processed

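The authors deposited raw UMI counts per gene and barcode, made with Cell Ranger 3.1.0 per the submitters' processing notes. The genome build and annotation are not given in the sources used here. The labels state that each library came from 1 animal. Of 194518 barcodes, 6375 under 500 UMIs and 2148 above 5% mitochondrial UMIs (13 genes) were left out. Doublets were called from simulated pairs (30 neighbours, 30 components, 2000 variable genes) and kept, with an alternative without them.

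Counts of the nuclei of a class were summed per animal and tested with edgeR 4.0.16 (TMM, quasi-likelihood test, Benjamini-Hochberg adjustment), with a block for the animal where classes of the same animals were compared, since both sums then come from 1 animal. DESeq2 1.42.0 was an alternative, both in R 4.3.3. Shares were compared by permutation tests (100000 resamples, or exact within a sex), and intervals of shares are Clopper-Pearson. The alternatives were other size factors, no count filter, no block, left-out animals, doublet calls left out, a lineage gene needed, and thinning to 1000 or 500 UMIs. The fits reported were tested on simulated data, except that of 34 animals against the planned precursors and the alternatives.

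The planned minimum of 10 nuclei for the group fits, and the planned split by Enpp6 without Gpr17, left too few animals. A minimum of 3 nuclei and the split within Gpr17 nuclei replaced them after the numbers of nuclei were seen. Named genes are, for each fit, the 10 called genes with the lowest p in each direction, or the 3 with the lowest p where none was called, and the genes of the lists. Genes of the selection rules were not tested. The members and lists were chosen with earlier results of these data known. Sequences were not used here, and the results of some named genes are not reported here, although counts include them.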

Additional observations from a re-analysis of the deposited data

Results flagged for a closer look

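Of 46 sets of 4 to 10 animals searched for a value far from the rest of its group, 17 held one. The rule marks about 5% of sets by chance where values are normal and sets are not chosen by their values. Most of these sets were levels of genes picked for a low p in the same data. The 17 can therefore not be set against the 5%. Many of these sets hold sums with few UMIs, in which most animals are at 0. As a share of lineage nuclei, female peer 5 had 5.12%, against 2.53% in the next animal of its group. Female peer 2 stood apart in Gad1 (2491 CPM), Slc32a1 (1044 CPM), Gad2 (1446 CPM), Scg2 (884 CPM) and Cst3 (3374 CPM), and 1 of its nuclei held 7880 UMIs, of which 31 were of Gad1. Female peer 5 stood apart in Penk (4003 CPM), from 1 nucleus of 3409 UMIs. Male mate 4 stood apart in Scg2 (1972 CPM), of which 1 nucleus gave 12 UMIs. Male peer 10 stood apart in Arid5b (535 CPM), Gad1 (268 CPM) and Slc32a1 (535 CPM). The other such values were Arid5b in female peer 4 (953 CPM), Cst3 in male mate 1 (1645 CPM), Naf1 in male mate 7 (84.2 CPM), Fads1 in male peer 8 (798 CPM), ENSMOCG00000018995 in male peer 1 (157 CPM) and Scg2 in male peer 7 (221 CPM).

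The partner effect differed between the sexes by edgeR's test of the interaction for 6 genes, as the log2 difference of females minus that of males. It was 4.67 for Fads1, -6.39 for Penk, -5.99 for ENSMOCG00000018995, -4.89 for Scg2, -3.34 for Mdh1 and -3.44 for Gad2. DESeq2 called none of the 6, and the animals whose removal ended a call are named with the results above.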

How the results depend on the processing

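The settings tested different numbers of genes, so shares are given with the counts. Against precursors 51 of 114 genes were called as planned (44.7%). With at least 3 nuclei and equal depth together it was 395 of 2133 (18.5%), and with no filter on low counts 339 of 12510 (2.71%). With any rule gene it was 234 of 1062 (22%), and 441 of 2142 (20.6%) with at least 3 nuclei and equal depth as well. It was 39 of 84 (46.4%) without doublet calls, and 45 to 61 (39.1% to 44.9%) with 1 of the 7 animals left out. Against mature oligodendrocytes it was 487 of 1353 (36%), 1627 of 13492 (12.1%) with no filter and 705 of 2002 (35.2%) with at least 3 nuclei and equal depth. It was 401 of 1071 (37.4%) without doublet calls, 420 of 1353 (31%) with DESeq2 and 431 to 496 (29.8% to 34.7%) with 1 animal left out. The genes checked here were the 10 with the lowest p in each direction of the planned precursor fit and of the mature fit. They kept their direction and side of the threshold in all 338 and 300 alternative values. Of these, 20 in each came from leaving out male mate 2, which was not among the 7 animals. That fit repeated the main one, so those values could not differ. Genes named only from the wider precursors, such as Frmd4a, were not part of the 338. Among other genes of the lists, in 34 animals Lrp6 lost its call against precursors, and Dscaml1, Mapt, Gpr37l1, Adgrg1 and Grin3a gained one. Against mature oligodendrocytes those that gained one include Sirt2, Sox10, Olig1, Gad2, Cntn1, Mapt and Slc44a1. For Enpp6 within Gpr17 nuclei the count was 26 of 372 (6.99%), with 2 of 421 (0.475%) at 4 or more nuclei. It was 66 of 677 (9.75%) for counts as deposited without equal depth. Without doublet calls it was 5 of 260 (1.92%), and without the filter 7 of 10534 (0.0665%). Of 161 alternative values of its named genes, 110 stayed on their side of the threshold and 51 lost the call. The 110 include 18 from leaving out male mate 2, which was not among the 21 animals, so these could not differ.

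The pairing of both sums within an animal as a block changed the counts from 51 to 51 (precursors), 496 to 487 (mature) and 35 to 26 (Enpp6), from no replicate block to block. For partner type 0 became 1 with at least 6 nuclei (Fn1) and 1 without doublet calls (Ptgds), and for sex 0 became 2 with at least 6 nuclei (Slc32a1 and Slc12a5). The 6 interaction calls of 4626 genes became 0 with DESeq2, 2 of 4094 with a lineage gene needed, 3 of 11920 without the filter and 10 of 4599 without male mate 2. With 1 of 7 animals left out in turn (female peer 2, 4, 5, 6 and 7, male mate 2 and 4, of the 34) they ranged from 1 (without male mate 4) to 11 (without female peer 4 or 7). A minimum of 20 nuclei was not run, since no animal held as many.

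Uncalled share differences changed sign. Mate minus peer among all nuclei became 0.00946 percentage points (adjusted p = 0.740) after thinning to 500 UMIs. Among lineage nuclei it became 0.0682 with precursors of any rule gene, 0.177 and 0.364 after thinning to 1000 and 500 UMIs, and 0.0150 with a lineage gene needed. Females minus males became 2.62 (adjusted p = 0.194) after thinning to 1000 UMIs. The cause of these changes was not tested. Depth limits all of these results, since the median selected nucleus held 860 UMIs.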

Other observations

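The rule left out 359 nuclei that carried the rule genes together with Mog, and no other excluded gene. They had a median of 1143 UMIs, and 87.7% held a lineage gene. Their pooled Bcas1 level was 4374 CPM, against 8299 CPM in the selected nuclei and 1047 CPM in mature oligodendrocytes. Mbp stood at 12962 CPM, against 5411 and 10067 CPM, and Ptgds at 6909 CPM, against 605 and 16511 CPM. Tcf7l2 stood at 1217 CPM, near the 1240 CPM of the selected nuclei and above the 50.5 CPM of mature ones, and Tnr at 828.7 CPM, between 1626 and 14.7 CPM. Rras2 was highest in them, at 483 CPM against 219 and 36.9 CPM. These are pooled values chosen by stage genes, with no test.

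A further 2724 nuclei carried the rule genes together with Pdgfra or Cspg4 and no other excluded gene, with a median of 855 UMIs. Their Ptprz1 level was 4446 CPM, their Tnr level 967 CPM, their Bcas1 level 1917 CPM and their Mbp level 102 CPM.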
